A study of Brassica oleracea with 12 samples.

Results

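Gene expression in the red center of the leaf at the third stage (S3_C) was compared with the leaf at the stage before it (S2) in ornamental kale, Brassica oleracea var. acephala, of the cultivar JC007-2B. The comparison used 6 of the 12 leaf libraries, 3 from S3_C and 3 from S2, chosen by their labels. The leaf is red throughout at S1, red at the center with a green margin at S2, and still red at the center with a green margin at S3. S1 and S2 are whole leaves with the veins removed, S3_C is the red center alone and S3_S is the green margin of the same stage. All 4 groups share the cultivar and carry no treatment in the labels, which give neither the age of the leaves nor whether replicates came from separate plants. The p-values therefore measure the spread between these libraries, which may be technical.

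S2 includes the green margin and S3_C does not, so the stage and the region of the leaf cannot be told apart in this comparison. Whether veins were taken out of the center is not given in the labels. RNA came from bulk tissue, where fewer cells of a type and less RNA per cell cannot be told apart either.

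As a leaf matures, its cells stop dividing, expand, build chloroplasts and begin to export sugar, and an old leaf later dismantles its chloroplasts and ships out the nitrogen. The red color of kale leaves comes from anthocyanins, flavonoid pigments made from phenylalanine and stored in the vacuole. In Arabidopsis the pathway is switched on by complexes of MYB, bHLH and WD40 proteins, of which the bHLH protein TT8 is one.

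Of the 45714 rows of the deposited table, 27272 reached 1 FPKM (fragments scaled to transcript length and library size) in at least 3 of the 12 libraries and were tested. Over the 6 libraries compared, summed FPKM lay between 426981 and 448249. Relative depth, read from the spacing of the lowest values, lay between 0.817 and 0.961 of S1 replicate 1, while absolute depth is unknown. On log2(FPKM + 1), correlations between libraries of one group ran from 0.856 to 0.921 (median 0.889) and those between the groups from 0.823 to 0.952 (median 0.907). The closest pair crossed the groups and was S2 replicate 3 with S3_C replicate 1. Outside these 6, S1 replicate 1 correlated at 0.911 to 0.941 with the S2 libraries. With S1 replicates 2 and 3 it correlated at only 0.749 and 0.761, while those correlated at 0.935 with each other. The leading principal component of the 6 libraries, with 41.0% of the variance, did not separate the groups: S2 stood at -82.7, -10.6 and 39.6 and S3_C at 22.5, 81.3 and -50.0 in replicates 1 to 3. A value of 0 was not read as absence, since 215 tested genes in S2 (0.788%) and 184 in S3_C (0.675%) were listed at 0 in one library and at 5 FPKM or more in another of the same group.

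Between the leaf at S2 and the red center at S3, 1 gene passed the test across all genes. This gene, Bo7g031620, annotated as a homeodomain-like protein and so carrying the DNA-binding fold of many transcription factors, was called higher in the center. It was listed at 0 in all 3 S2 libraries and had 17.4, 14.7 and 16.6 FPKM in S3_C. Its mean in the center was 16.2 ± 1.41 FPKM (SD, n = 3), so the groups did not overlap. No fold is given against a group listed at 0, and whether these zeros are low expression or failed estimates was not tested. In the other groups it had 15.1, 0 and 17.2 FPKM in S1 and 13.1, 18.2 and 14.3 in S3_S, so S2 was the group without a value for it, and 1 library of S1 was listed at 0 too. In limma's moderated test with Benjamini-Hochberg adjustment its adjusted p was 0.01404, and it was the 1 gene of 27272 called higher (0.00367%). The call was lost without S2 replicate 2 or 3 or any S3_C library (adjusted p from 0.077 to 0.246 in those fits) and held without S2 replicate 1 (0.0463). It was also lost when all 12 libraries set the spread (adjusted p = 1.0), with the replicate number as a block (0.734), with no filter on low values (0.0793) and when genes listed at 0 in any of the 6 libraries were left out, which removes this gene.

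Limma called 0 genes lower (0%), and the next smallest adjusted p over all genes was 0.648. At an unadjusted p under 0.05, 192 genes were higher in the center (0.704%) and 197 lower (0.722%). Together these were 389 genes (1.43%), below the 1364 (5%) expected at that p if no gene differed. Both directional counts moved with single libraries, from 125 to 416 higher and from 120 to 902 lower when 1 library was left out. The 902 was reached without S3_C replicate 3, and 722 without S2 replicate 3. Groups did not overlap for 410 genes higher in the center (1.5%) and 695 lower (2.55%). Groups of 3 libraries can also separate by chance, so lack of overlap describes the values and is not a test. A log2 difference of at least 1 in size was seen for 339 genes higher (1.24%) and 303 lower (1.11%). The median log2 difference over all tested genes was -0.09, with a range of -0.45 to 0.30 between the 10th and 90th percentiles, and 63.1% of genes had a lower mean in the center and 36.8% a higher one. After median-of-ratios scaling the median was -0.007 and 48.7% had a higher mean, so the share of lower genes depended on the scaling. The 95% confidence interval of a log2 difference, for each gene alone, reached a median of 0.739 to either side. That reach varied between genes, from 0.517 at the 10th percentile to 1.41 at the 90th. A difference smaller than a gene's own reach was not detectable with these libraries, even before adjustment. After adjustment over all genes, only 1 gene was called among those 339 and 303. The lack of calls thus does not show that differences above 0.739 were absent.

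**Figure D1:**
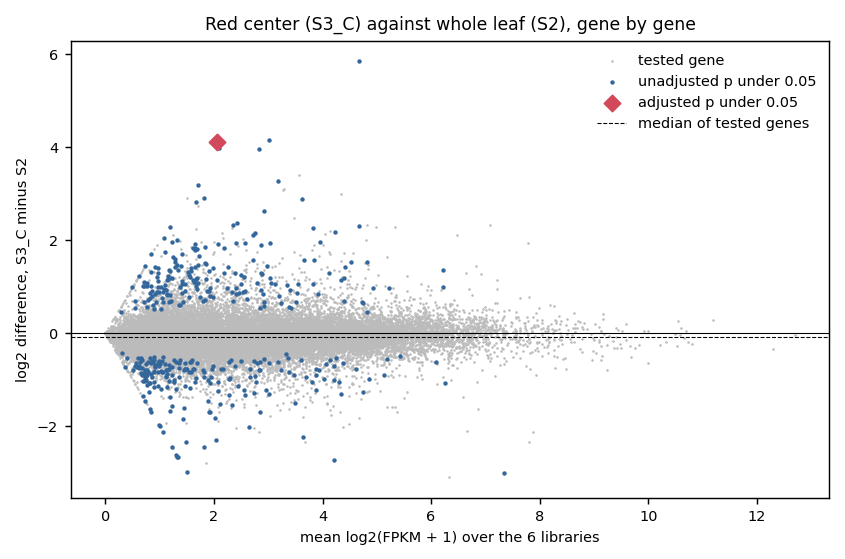
Log2 difference of each tested gene, S3_C minus S2, against its mean log2(FPKM + 1) over the 6 libraries. Grey points are the 27272 tested genes, blue points the 389 at an unadjusted limma p under 0.05 and the red diamond the 1 called gene, Bo7g031620; the dashed line is the median of -0.09.

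Among the 20 named genes that were higher in the center, did not overlap and had an unadjusted p under 0.05, the 10 with the largest differences are described first. None of them other than Bo7g031620 passed the adjusted test. SEP2, a thylakoid protein that is induced by strong light in Arabidopsis and related to the light-harvesting proteins, had 0.173, 0.3598 and 0.343 FPKM in S2 and 0.848, 29.7 and 14.9 in S3_C (log2 difference 2.91, unadjusted p = 0.02095). Its 3 S2 libraries were close together, while the center ranged widely, and the S3_S libraries, at 34.6, 27.3 and 0.0272 FPKM, reached both ends of that range. BG3 Bo6g072790, a beta-1,3-glucanase that cuts callose and fungal glucans, had 1.86, 1.81 and 3.11 FPKM in S2 and 6.01, 11.8 and 31.8 in S3_C (log2 difference 2.16, unadjusted p = 0.00644). Bo4g188000, an MLO-like membrane protein of the family named after a barley mildew locus, had 0, 0.1498 and 0.699 FPKM in S2 and 2.51, 1.801 and 11.9 in S3_C. All its other 9 libraries lay below the center's lowest. Bo1g003570, a peroxidase, had 0.505, 1.89 and 2.21 FPKM in S2 and 2.45, 25.6 and 6.003 in S3_C, and the cytochrome P450 gene CYP76C2 had 0.622, 1.03 and 1.31 and 1.91, 12.8 and 3.04. In both, S3_C replicate 2 was far above the other 2 libraries of the center, and S3_C replicate 1 lay close to the highest S2 library.

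A more even difference was that of the GDSL lipase entry Bo9g054510;Bo9g054520, which joins 2 neighboring loci of a family of esterases and acylhydrolases. It had 13.5, 8.82 and 16.8 FPKM in S2 and 48.5, 31.6 and 36.05 in S3_C (log2 difference 1.52, SE 0.29, unadjusted p = 0.00133). S1, at 39.9, 39.6 and 39.8 FPKM, and S3_S, at 46.9, 56.3 and 26.6, were near the level of the center, so here too S2 was the group that stood lower. PEX11E, which in Arabidopsis takes part in the growth and division of peroxisomes, had 7.78, 15.03 and 8.77 FPKM in S2 and 16.8, 54.7 and 19.7 in S3_C. The O-methyltransferase Bo8g070660 had 0.397, 2.84 and 2.67 in S2 and 3.44, 9.63 and 22.3 in S3_C, and the lectin protein kinase Bo3g081630, of a family of membrane receptors, had 1.85, 3.27 and 3.54 and 4.02, 17.2 and 15.2. For both, the lowest center library was close to the highest S2 library.

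In the other direction 10 named genes met the same conditions, and none passed the adjusted test. The lowest p among them belonged to Bo9g177080, whose Mad3/BUB1 region is shared by proteins of the spindle checkpoint, which holds dividing cells until their chromosomes are attached. It had 6.89, 7.04 and 5.26 FPKM in S2 and 1.61, 1.19 and 1.93 in S3_C (log2 difference -1.52, SE 0.25, unadjusted p = 5.93e-04, adjusted p = 1.0). All 3 center libraries lay below the 9 libraries of S1, S2 and S3_S. The pectate lyase Bo8g087210, which cuts the pectin between cells, had 6.87, 4.52 and 5.31 FPKM in S2 and 2.83, 0.3297 and 3.04 in S3_C. The 60S ribosomal protein L18a gene Bo4g039790 had 23.1, 22.4 and 19.5 FPKM in S2 and 6.26, 5.44 and 18.5 in S3_C. OPR3, which makes the jasmonate precursor in peroxisomes, had 19.2, 23.5 and 17.5 FPKM in S2 and 9.09, 12.8 and 15.7 in S3_C (log2 difference -0.66). For the last 2 of these genes the highest center library came close to the lowest of S2.

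The remaining 6 genes had log2 differences between -1.02 and -0.58. They were a B-cell receptor-associated protein 31-like protein of the endoplasmic reticulum (Bo8g108590), a P-loop nucleoside triphosphatase (Bo5g030840), an S-acyltransferase that attaches fatty acids to proteins (Bo6g095550), MEE9, the remorin Bo1g005020, which sits in the plasma membrane, and the ABL interactor-like protein Bo7g097010, of the actin machinery. The remorin gene had 18.3, 20.2 and 18.9 FPKM in S2 and 12.95, 9.89 and 9.46 in S3_C (unadjusted p = 0.00599). S1 at 11.7, 8.92 and 16.1 FPKM and S3_S at 17.5, 9.03 and 9.39 overlapped the center, so S2 stood apart for this gene. For the P-loop protein and the S-acyltransferase, the center was below all other 9 libraries.

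**Figure D2:**
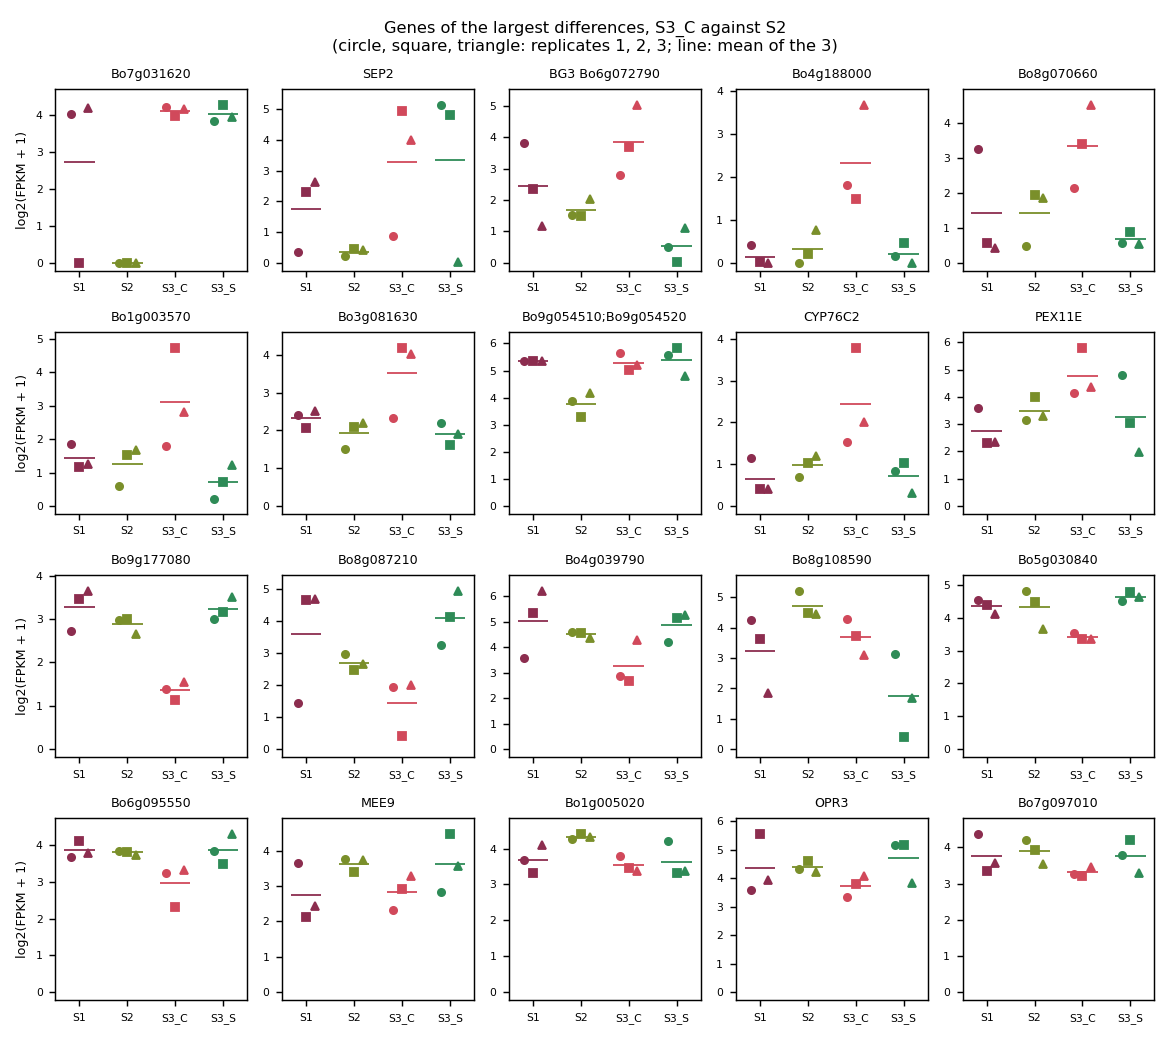
Log2(FPKM + 1) in all 12 libraries for the 10 named genes with the largest differences in each direction between S3_C and S2, the higher ones in the upper rows. Symbols are the 3 libraries of a group and lines their means; in Bo9g177080 the center lies between 1.19 and 1.93 FPKM, below the other 3 groups.

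Some of the largest differences were those of genes with no informative name, picked out after their values were seen. Bo6g120910, annotated by its ontology terms as a structural component of the cell wall, had 0.257, 10.3 and 1.64 FPKM in S2 and 183, 118 and 325 in S3_C. Its log2 difference of 5.84 (SE 0.81, limma adjusted p = 0.696) was the largest of all tested genes in either direction. The center lay far above the highest of the other 9 libraries, 18.2 FPKM in S1 replicate 1. Bo6g087900, annotated as an endopeptidase inhibitor, had 4.31, 50.5 and 16.9 FPKM in S3_C, was listed at 0 in 8 other libraries and had 0.244 in S2 replicate 2. Among those lower in the center, Bo8g102720 had 29.2, 34.4 and 17.7 FPKM in S2 and 2.83, 5.49 and 6.72 in S3_C (log2 difference -2.24, adjusted p = 1), with S1 and S3_S mostly lower still. None of these differences passed the adjusted test.

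Gene classes were read next, from 45 lists that matched 2434 genes, 1684 of them tested. No member of any class was called in either direction, against 0.00367% called higher and 0% called lower among all genes. Among the 39 classes with at least 8 tested members, median log2 differences ran from -0.75 for wax and cutin to 0.22 for amino acid transport, with 18 medians above 0 and 21 below. The median of all tested genes was -0.09, and most classes lay close to it. Only 9 of the 39 medians kept their sign in all 6 fits that left out 1 library, 2 of them above 0 and 7 below. The 2 above were the tricarboxylic acid cycle and amino acid transport. The 7 below were wax and cutin, ribosome biogenesis, fatty acid synthesis, pectin modification, glutathione transferases, microtubule motors and heat shock. All 9 kept their sign under median-of-ratios scaling. Sign was read against 0, while the median of all genes was itself below 0. For heat shock the median was -0.11, or -0.03 after that scaling (all genes, -0.007).

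**Figure D3:**
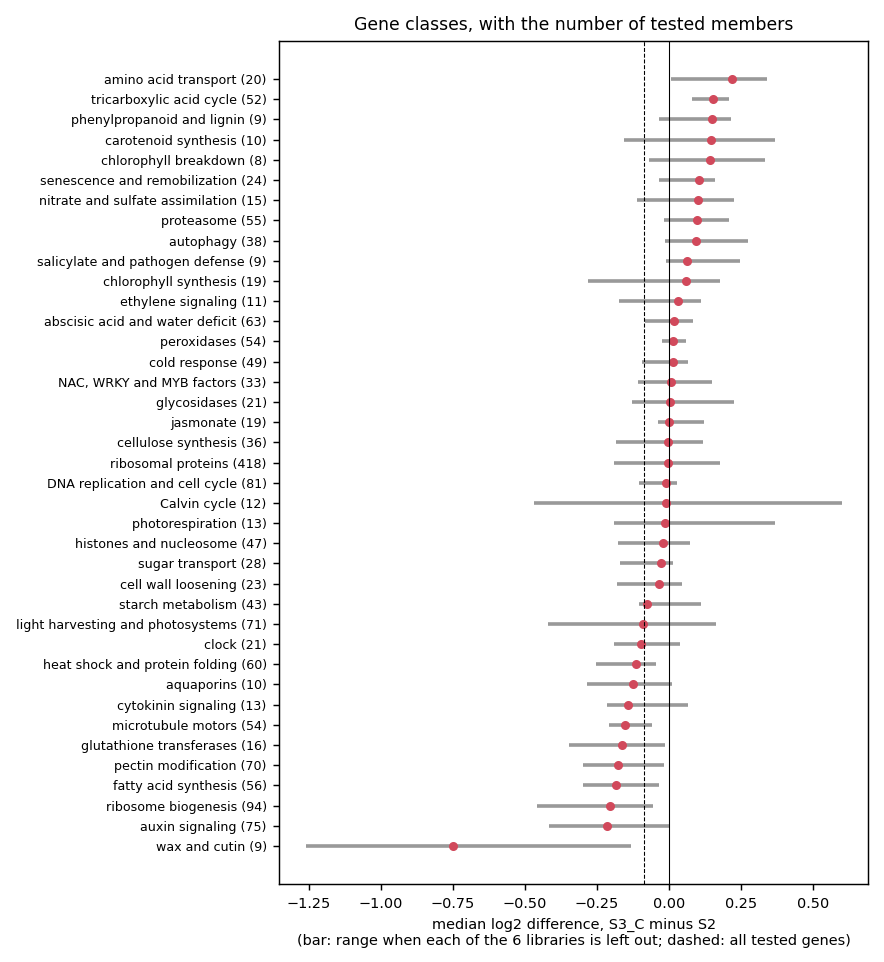
Median log2 difference, S3_C minus S2, of the 39 classes with at least 8 tested members (points), with the range of the median when each of the 6 libraries is left out (bars). The dashed line is the median of all tested genes, -0.09; the bars of 9 classes stay on one side of 0.

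Genes of the photosynthetic apparatus had no shift between S2 and the red center that stood outside the spread of the libraries. The 71 tested antenna and photosystem genes had a median log2 difference of -0.09, equal to that of all genes to 2 decimals, with 28 above 0 and 43 below and 0 without overlap in either direction (all genes, 1.5% and 2.55%). Their summed level was 11158, 16248 and 20087 FPKM in S2 and 23864, 10338 and 10872 in S3_C. The center thus held both the highest and the lowest library of the 6. The most abundant of them, the photosystem I chlorophyll a/b-binding protein gene Bo4g101180, followed that order with 1245, 2103 and 2306 FPKM in S2 and 3213, 1074 and 1196 in S3_C. LHCA4, another antenna protein of photosystem I, had 1057, 1662 and 2664 FPKM in S2 and 2812, 981 and 1355 in S3_C.

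Carbon fixation genes were more uneven still. The entry Bo4g137150;Bo4g137140;Bo4g137200, which joins 3 loci of the small subunit of Rubisco, had 487, 1152 and 1562 FPKM in S2 and 2050.3, 700.3 and 319 in S3_C. GAPB, a chloroplast glyceraldehyde-3-phosphate dehydrogenase subunit, had 112, 362 and 724 FPKM in S2 and 717, 442 and 105 in S3_C. GAPB covered nearly the same range in both groups, and the Rubisco entry a wider one in the center, which held both its highest and its lowest value. The 12 tested Calvin cycle genes had a median of -0.01, which moved from -0.47 to 0.6004 as single libraries were left out, the lowest without S3_C replicate 1 and the highest without S3_C replicate 3. Photorespiration, the salvage of glycolate from Rubisco's reaction with oxygen, had a median of -0.01 over 13 genes (-0.19 to 0.37). The Rubisco entry and another small subunit gene, Bo6g059930, belonged to this class as well as to the Calvin cycle, so the classes are not separate evidence. Bo6g059930 had the lowest log2 difference of both, -0.82. Chlorophyll synthesis had 0.06 over 19 genes (-0.28 to 0.18), with its magnesium chelatase gene CHLI2 at 1.25, 2.46 and 2.59 FPKM in S2 and 2.81, 3.43 and 2.14 in S3_C. The chloroplast development list had 1 tested gene, PIL5 (PIF1), a light-sensitive repressor of greening, at 13.8, 13.1 and 16.8 FPKM in S2 and 19.3, 6.49 and 14.5 in S3_C.

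Genes on the chlorophyll breakdown list mostly had slightly higher means in the center, and none reached an unadjusted p under 0.05. PSB29, the protein kinase Bo1g011360 and ATABC1 Bo9g004190 are not described as breakdown enzymes, and Bo9g059330 and Bo2g120670 have no description. The counts below are therefore of the list and not of known breakdown enzymes alone. Of the 8 tested, 7 had a log2 difference above 0 (all genes, 36.8% above), and the median was 0.14 (-0.07 to 0.33 without single libraries, below 0 without S2 replicate 1). ACD1, whose oxygenase cleaves the ring of pheophorbide a, had 17.7, 43.6 and 101 FPKM in S2 and 69.3, 132 and 62.7 in S3_C (log2 difference 0.94, SE 0.63, unadjusted p = 0.182). The S2 libraries spread so widely that S2 replicate 3 exceeded 2 of the 3 center libraries. NOL, a chlorophyll b reductase subunit, had 10.2, 15.6 and 19.2 FPKM in S2 and 17.2, 24.3 and 10.5 in S3_C, and PSB29, listed here by its annotation, had 59.6, 114 and 152 and 164, 145 and 80.6. Neither separated the groups. The coenzyme F420 hydrogenase-like entry Bo5g004750;Bo5g004760 had a log2 difference of 0.12, the protein kinase Bo1g011360 one of 0.18 and ATABC1 Bo9g004190 one of 0.03. For the genes without a description, Bo9g059330 and Bo2g120670, it was 0.05 and -0.11.

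Carotenoid synthesis had a median of 0.15 over 10 genes, 8 of them above 0 (all genes, 36.8%). The median was below 0 without S2 replicate 1 (-0.15) or S3_C replicate 2 (-0.002). The highest log2 difference, 0.3413, equaled that of ACLA-1, an ATP-citrate lyase gene on the chlorophyll synthesis list. The class may thus hold genes other than carotenoid enzymes. Its lycopene cyclase gene Bo5g137670, for the step that closes the rings of carotenes, had 15.2, 30.9 and 59.5 FPKM in S2 and 43.7, 0.3697 and 18.8 in S3_C. S3_C replicate 2 was nearly without signal for that gene, while its level of the desaturase ZDS, at 19.1, 25.6 and 13.1 FPKM in the center and 10.5, 15.9 and 18.5 in S2, was the highest of the 6.

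For the pathway to the red pigment, the tested genes were 5 of the early flavonoid list and 1 regulator. Of those 5, TT7 is a named enzyme of the pathway. The other 4 are described only as chalcone isomerase family proteins, and whether each acts in the pathway is not given. The 5 had a median of 0.08, with 4 above 0 (all genes, 36.8%). TT7, the flavonoid 3'-hydroxylase, had 1.02, 0.233 and 0.3702 FPKM in S2 and 1.46, 0.962 and 1.09 in S3_C (log2 difference 0.52, unadjusted p = 0.0851), against 2.37, 47.005 and 20.9 in the red leaf at S1. The center was thus on the side of S2, far below 2 of the 3 S1 libraries. Of the 4 chalcone isomerase family genes, the most abundant was Bo8g088480 MSTRG.28667, with 9.19, 3.31 and 1.56 FPKM in S2 and 2.25, 2.71 and 4.06 in S3_C. Bo6g068550 had 1.34, 2.43 and 0.477 and 0.591, 5.63 and 5.97, and Bo6g031530 and Bo9g177250 had log2 differences of 0.05 and 0.08. The S1 libraries of Bo6g068550, at 5.33, 28.6 and 19.1 FPKM, reached above all libraries of S2 and, in 2 of 3, above those of the center.

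TT8 was the only tested gene of the 16 anthocyanin regulators listed. It had 7.77, 0.696 and 0.694 FPKM in S2 and 0.774, 0.9002 and 2.35 in S3_C, with 3.66, 25.9 and 19.001 in S1 and 4.59, 0.188 and 5.83 in S3_S. The mean difference of -0.39 on the log2 scale was 0.404 without S2 replicate 1. The list of late anthocyanin steps matched 2 genes by ontology term, and neither is an enzyme of the pathway. CIP7, a partner of the light-signaling protein COP1, had 9.99, 9.699 and 11.4 FPKM in S2 and 8.24, 4.12 and 15.2 in S3_C, and PII, a sensor of carbon and nitrogen status, had 10.3, 14.1 and 17.9 and 24.2, 11.1 and 11.3. Values of the late pathway enzymes are not analysed here. In the wider phenylpropanoid class of 9 genes the median was 0.15, and its most abundant member, CAD4, a cinnamyl alcohol dehydrogenase of lignin synthesis, had 36.1, 30.9 and 29.7 FPKM in S2 and 30.2, 28.6 and 37.7 in S3_C.

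**Figure D4:**
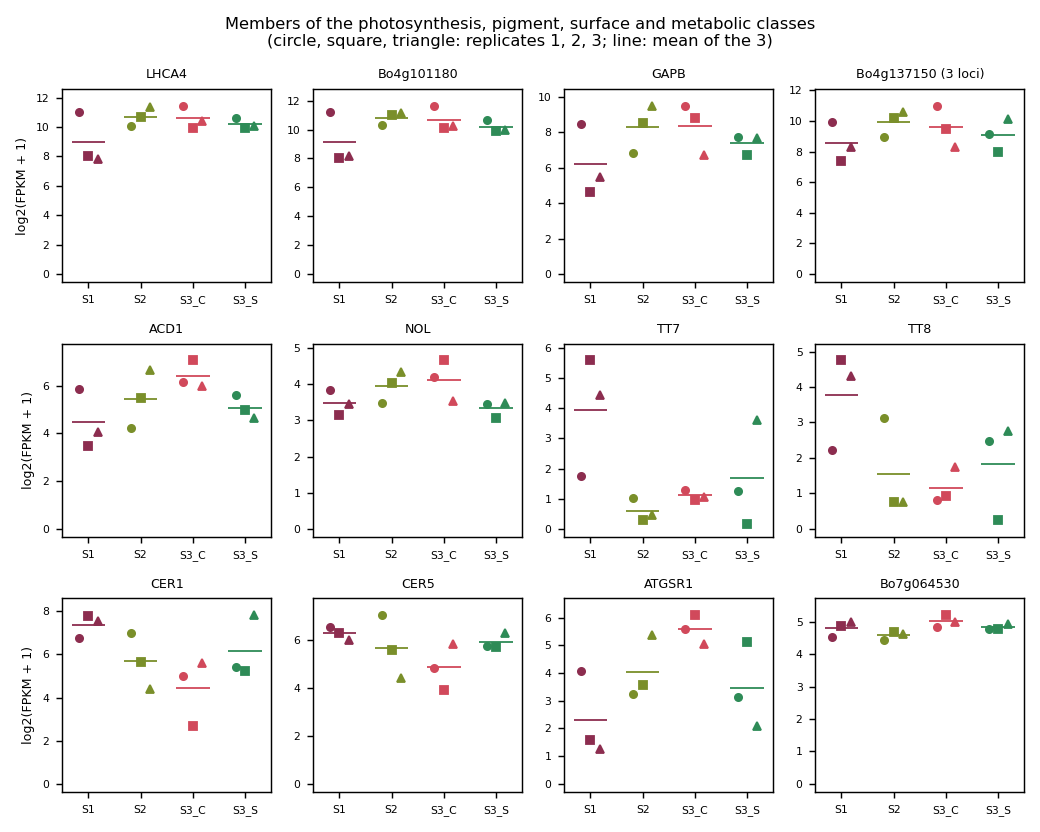
Log2(FPKM + 1) in all 12 libraries for 12 genes of the photosynthesis, pigment, leaf surface and metabolic classes; symbols are the 3 libraries of a group and lines their means. S2 and S3_C overlap in the antenna genes LHCA4 and Bo4g101180, in ACD1 and in CER1, and the succinate dehydrogenase gene Bo7g064530 has all 3 center libraries above S2.

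Genes of the leaf surface had the lowest median of the 39 classes. The wax and cutin class had -0.75 on the log2 scale over 9 tested genes, with 8 of 9 below 0 (all genes, 63.1% below). Of the 9, 0 were without overlap (all genes, 1.5% higher and 2.55% lower) and 0 had an unadjusted p under 0.05 (all genes, 0.704% and 0.722%). CER1, an enzyme of alkane formation in the wax layer, had 127, 48.8 and 20.3 FPKM in S2 and 31.3, 5.37 and 47.8 in S3_C (log2 difference -1.25, SE 0.91, unadjusted p = 0.215). CER5, an ABC transporter that exports wax, had 131, 46.8 and 20.6 FPKM in S2 and 27.8, 14.01 and 55.96 in S3_C. The highest value of each was in S2 replicate 1 and the lowest in S3_C replicate 2, while the other 4 libraries overlapped. LACS2, an acyl-CoA synthetase of cutin, had 9.93, 6.07 and 2.82 FPKM in S2 and 3.42, 1.21 and 4.05 in S3_C. WSD1, a wax ester synthase, had 119.8, 34.5 and 8.39 and 17.6, 9.55 and 20.3, and GPAT8, an acyltransferase of cutin, had 13.3, 4.42 and 1.904 and 2.71, 1.02 and 5.35. WSD1 and GPAT8 were added after their values were seen.

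The median of this class was -0.13 without S2 replicate 1, -0.33 without S3_C replicate 2 and -1.26 without S2 replicate 3, so its size rested on single libraries. Its most abundant member, SGS3, is known for RNA silencing and entered by an ontology term, with 152, 73.5 and 70.3 FPKM in S2 and 85.8, 47.4 and 89.4 in S3_C. Of 10 epidermis markers listed, 4 were matched and 3 tested, CER1, CER5 and LACS2, which are also members of the class. Their summed level, with the untested CUT1, was 268, 104 and 44.5 FPKM in S2 and 62.7, 21.5 and 108 in S3_C. It moved with the class, and the part of the amount of epidermis in the result was not tested.

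The other marker lists overlapped between the groups. Of 5 mesophyll markers, 2 were matched, LHCA4 and GAPB, with summed levels of 1168, 2024 and 3388 FPKM in S2 and 3529, 1424 and 1459 in S3_C. Of 13 vasculature markers, 3 were matched, CESA4, CESA8 and XCP1, which serve the secondary walls and the death of xylem cells, and they summed to 1.6004, 2.53 and 0.461 FPKM in S2 and 0.955, 1.11 and 2.35 in S3_C. The xylem markers were thus low in both groups. The matched markers of the stomatal lineage (TMM and EPF1) and of the shoot meristem (STM) stayed under the level for testing, each list summing to at most 0.537 FPKM in any of the 6 libraries.

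Genes of cell division and chromatin had medians near 0. The 81 tested genes of DNA replication and the cell cycle had a median of -0.01 (-0.102 to 0.03), and the most abundant, the cyclin-dependent kinase regulatory subunit Bo3g168990, had 86.97, 64.6 and 42.9 FPKM in S2 and 48.4, 46.04 and 73.2 in S3_C. RPA2, a subunit of the complex that coats single-stranded DNA during replication, had 0.368, 0.817 and 0.386 FPKM in S2, 0.895, 0.808 and 1.07 in S3_C and 0.341, 20.4 and 22.7 in S1. Both groups were thus far below S1 replicates 2 and 3, and not below S1 replicate 1. The 47 histone and nucleosome genes had a median of -0.02, and their 2 lowest p-values went in opposite directions. Bo9g140890, which encodes a histone H2A, had 3.81, 2.99 and 2.15 FPKM in S2 and was listed at 0 in all 3 center libraries (unadjusted p = 7.79e-05, adjusted p = 0.648). Another histone H2A gene, Bo2g025290, had 1.21, 5.43 and 2.49 FPKM in S2 and 9.67, 4.45 and 10.4 in S3_C (log2 difference 1.25, unadjusted p = 0.0364). Reads may be split among related histone genes in a way not given in the sources used here, and both values are uncertain in that respect. The 54 microtubule motor genes, kinesins that work in division and transport, had a median of -0.15 (-0.21 to -0.06), a little below that of all genes. ARK2, the most abundant of them, had 23.1, 18.1 and 18.9 FPKM in S2 and 15.998, 14.03 and 16.9 in S3_C.

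Most genes for making ribosomes had a lower mean in the center, while their groups overlapped in all but 1. Of the 94 tested ribosome biogenesis genes, 77 had a log2 difference below 0 (all genes, 63.1%), and the median was -0.204 (-0.46 to -0.06), with 1 gene higher and 0 lower without overlap (all genes, 1.5% and 2.55%). The most abundant entry, an elongation factor family gene (Bo9g166590), went the other way in mean, with 75.2, 127 and 212 FPKM in S2 and 204, 209 and 88.5 in S3_C. The summed level of the class was 1322, 1412 and 1350.1 FPKM in S2 and 1297, 1128 and 1496 in S3_C, and S3_C replicate 3 was the highest of the 6. The 418 ribosomal protein genes had a median of -0.003, with 206 above 0 and 212 below, and it moved from -0.19 to 0.18 with S3_C replicates 3 and 2 left out in turn. Bo3g093930, with no description, had the lowest p of that class at 2.47, 0.968 and 3.099 FPKM in S2 and 18.2, 7.69 and 39.4 in S3_C (unadjusted p = 0.00303).

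Cell wall genes were read in 3 classes. The 70 pectin genes, lyases and esterases that cut or trim pectin, had a median of -0.18 (-0.297 to -0.02), with 51 below 0 (all genes, 63.1%). Their most abundant entry joins 5 pectinesterase loci on one row and had 32.1, 37.2 and 28.5 FPKM in S2 and 27.98, 24.3 and 94.7 in S3_C (Bo1g134400;Bo1g134420;Bo1g134410;Bo1g134430;Bo1g134450). The 23 expansin and xyloglucan genes that let walls stretch had a median of -0.04, and the 36 of cellulose synthesis -0.001. Within the wall-loosening class, the xyloglucan endotransglucosylase Bo7g114380 was the most abundant, with 579.5, 347 and 315 FPKM in S2 and 209, 408 and 919.7 in S3_C. XTH9, of the same enzyme family, had 13.2, 6.75 and 3.497 and 4.75, 0.4002 and 3.37, while Bo7g079960 had 11.8, 19.6 and 24.8 and 36.2, 32.9 and 22.4. The first of these 2 had the lower mean in the center and the second the higher, and both overlapped.

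Most genes of the tricarboxylic acid cycle, which oxidizes carbon in mitochondria, had a higher mean in the center. Of its 52 tested genes, 41 had a log2 difference above 0 (all genes, 36.8%), and 4 were higher without overlap and 0 lower (all genes, 1.5% and 2.55%). The median was 0.15 and ran from 0.08 to 0.21 without single libraries, although no member had an unadjusted p under 0.05. The succinate dehydrogenase flavoprotein gene Bo7g064530 had 20.6, 24.8 and 23.7 FPKM in S2 and 27.7, 35.9 and 30.99 in S3_C (log2 difference 0.43, SE 0.19, unadjusted p = 0.0615). The lowest center library was above the highest of S2. The isocitrate dehydrogenase gene Bo9g183040 had 13.4, 18.2 and 17.5 FPKM in S2 and 16.4, 25.8 and 26.1 in S3_C. The most abundant gene, the malate dehydrogenase Bo2g009460, showed no such order, with 223, 501.7 and 826 FPKM in S2 and 744, 671 and 226 in S3_C.

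Amino acid transport had the highest median of the 39 classes, 0.22 over 20 genes, with 12 above 0 (all genes, 36.8%), and it was 0.01 without S2 replicate 1. The amino acid transporter Bo5g153960 had 4.83, 3.68 and 10.2 FPKM in S2 and 8.13, 11.5 and 14.9 in S3_C (log2 difference 0.86, unadjusted p = 0.0644). In Bo7g078080 all 3 center libraries were above S2, at 5.05, 5.31 and 4.97 FPKM against 3.602, 3.03 and 4.34. The most abundant gene of the class, Bo9g032180, had the lower mean in the center, with 153, 136 and 87.3 FPKM in S2 and 83.8, 128 and 97.7 in S3_C (log2 difference -0.26). Nitrate and sulfate assimilation had a median of 0.0998, with 13 of 15 genes above 0 (all genes, 36.8%). The median was below 0 without S2 replicate 1. The adenylyl-sulfate kinase Bo3g096460, which activates sulfate, had 4.15, 4.78 and 6.003 FPKM in S2 and 6.84, 13.3 and 6.46 in S3_C. GLU1, the ferredoxin-dependent glutamate synthase of leaves, had 36.4, 104 and 188 and 170.01, 171 and 51.1.

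Genes that are known to rise in aging or sugar-starved leaves had a median of 0.104 (-0.03 to 0.16 without single libraries). Of the 24 tested, 16 were above 0 (all genes, 36.8%). ATGSR1, a cytosolic glutamine synthetase that loads nitrogen for export, had 8.43, 10.8 and 39.9 FPKM in S2 and 47.6, 66.9 and 31.7 in S3_C (log2 difference 1.52, SE 0.58, unadjusted p = 0.0362). S2 replicate 3 was within the range of the center and the other 2 S2 libraries below it. COR78, a cold and drought gene that entered by annotation, was the most abundant at 159.8, 226 and 571 FPKM in S2 and 438, 69.6 and 341 in S3_C. Autophagy, the recycling of cell contents in vesicles, had 27 of 38 genes above 0 (all genes, 36.8%) and a median of 0.09 (-0.01 to 0.28). Without overlap, the class had 2 genes higher and 1 lower (all genes, 1.5% and 2.55%). Its Bo3g060570, a homolog of ATG8h that coats the vesicles, had 0.771, 0.638 and 1.005 FPKM in S2 and 1.31, 2.75 and 6.05 in S3_C (unadjusted p = 0.0325), without overlap. The proteasome had 36 of 55 genes above 0 (all genes, 36.8%) and a median of 0.097 (-0.02 to 0.21).

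Sugar and starch classes lay close to the median of all genes. Starch metabolism had -0.08 over 43 genes, sugar transport -0.03 over 28 and the glycosidases 0.01 over 21. The beta-galactosidase Bo3g019600, an enzyme that frees sugars from the wall, was the most abundant glycosidase gene, with 2077, 3006 and 1560.3 FPKM in S2 and 1884, 3821 and 2441 in S3_C. It had 2717, 10.9 and 4.84 in S1 and 1590.5, 1298 and 121 in S3_S. The 2 groups overlapped, and the S1 libraries ranged from their level to almost none. The SWEET sugar transporter Bo8g077260 had 73.8, 77.9 and 41.5 FPKM in S2 and 52.4, 29.97 and 75.1 in S3_C. Fatty acid synthesis had a median of -0.18 (-0.299 to -0.03), with 44 of 56 genes below 0 (all genes, 63.1%). Without overlap 0 were higher and 2 lower (all genes, 1.5% and 2.55%). The most abundant member of this list is described as a lipoxygenase and is shared with the jasmonate class (Bo6g079880 MSTRG.21521), so the list is wider than synthesis enzymes. It had 64.8, 277 and 202 FPKM in S2 and 44.2, 478 and 9.04 in S3_C. Its log2 difference of -1.36 was the lowest of the list.

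Hormone and stress classes had few members apart. Jasmonate had a median of 0.0003 over 19 genes and held members on both sides. Bo8g067140, a JAZ repressor that jasmonate itself induces, had 0.665, 0.826 and 1.03 FPKM in S2 and 1.85, 4.97 and 5.81 in S3_C (log2 difference 1.41, unadjusted p = 0.00753), without overlap, while OPR3 was lower in all 3 center libraries. Auxin signaling had a median of -0.21, and 0.002 without S2 replicate 1, with 60 of 75 genes below 0 (all genes, 63.1%). Its most abundant gene, the auxin-responsive Bo5g093110 MSTRG.18502, had 215, 193 and 191 FPKM in S2 and 218, 109 and 331 in S3_C. Cytokinin signaling had -0.14 over 13 genes, ethylene signaling 0.03 over 11 and the abscisic acid and water deficit class 0.02 over 63. In that last class 1 gene was higher and 3 lower in the center without overlap (all genes, 1.5% and 2.55%). Its lowest p was that of KEG, a ubiquitin ligase of abscisic acid signaling in Arabidopsis, with 11.9, 10.5 and 8.01 FPKM in S2 and 7.43, 3.01 and 6.805 in S3_C (log2 difference -0.78, unadjusted p = 0.0586). ATMPK3, a stress-activated protein kinase, had 24.9, 23.3 and 21.2 FPKM in S2 and 25.9, 32.4 and 38.8 in S3_C, without overlap (unadjusted p = 0.0746).

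Salicylate and pathogen defense had a median of 0.06 over 9 genes. The chitinase Bo3g036650 MSTRG.8724, an enzyme against fungal walls, had 0.172, 0.794 and 0.768 FPKM in S2 and 0.717, 2.71 and 5.96 in S3_C, and PR4 had 3.25, 0.895 and 2.05 and 2.47, 2.98 and 13.8. In both, S3_C replicate 3 was the highest of the 6 libraries. The 54 genes of the peroxidase class, which holds catalases too, had a median of 0.02. Of them 3 had an unadjusted p under 0.05, all higher in the center (all genes, 0.704% higher and 0.722% lower). Without overlap, 4 were higher and 0 lower (all genes, 1.5% and 2.55%). The peroxidase Bo8g077570 had 1.6997, 2.67 and 4.48 FPKM in S2 and 5.33, 7.73 and 6.501 in S3_C (log2 difference 0.98, unadjusted p = 0.0209). The most abundant, the catalase Bo7g061480, which removes hydrogen peroxide in peroxisomes, had 1271, 1276 and 1618 and 1727, 1862 and 1384. Heat shock and protein folding had a median of -0.11 (-0.25 to -0.05), with 45 of 60 genes below 0 (all genes, 63.1%). The glutathione transferases had -0.16 (-0.35 to -0.01) over 16 genes. Cold response had 0.01 over 49 genes, the clock -0.096 over 21, the aquaporins -0.12 over 10 and the NAC, WRKY and MYB factors 0.01 over 33.

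The leaf patterning class had 4 tested genes and 2 of them were lower in the center without overlap (all genes, 2.55%). YAB3, a YABBY factor of the lower leaf side in Arabidopsis, had 10.6, 10.5 and 11.5 FPKM in S2 and 9.56, 6.43 and 9.22 in S3_C (log2 difference -0.35, unadjusted p = 0.153). AtGRF1, a growth-regulating factor of expanding leaves, had 4.903, 3.34 and 3.78 FPKM in S2 and 3.32, 2.29 and 2.52 in S3_C (log2 difference -0.43, unadjusted p = 0.136). The glucosinolate class, for the mustard oil precursors of cabbages, had 1 tested gene, CYP83A1 Bo4g130780, at 0.351, 0.471 and 0.908 FPKM in S2 and 1.85, 0.398 and 1.42 in S3_C.

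The levels of several classes differed widely between libraries of one group. S2 replicate 3 and S3_C replicate 1 shared high levels of the light harvesting and Calvin cycle classes, and S3_C replicate 3 was the lowest of the 6 in the Calvin cycle. The median relative level of the Calvin cycle, as the log2 distance of each gene from its mean over 12 libraries, was -0.42, 0.47 and 1.25 in S2 and 1.54, 0.55 and -0.89 in S3_C. For wax and cutin it was 0.82, -0.06 and -0.88 in S2 and -0.65, -1.52 and 0.03 in S3_C. For the tricarboxylic acid cycle it was -0.25, -0.03 and -0.12 in S2 and -0.08, 0.098 and 0.07 in S3_C.

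**Figure D5:**
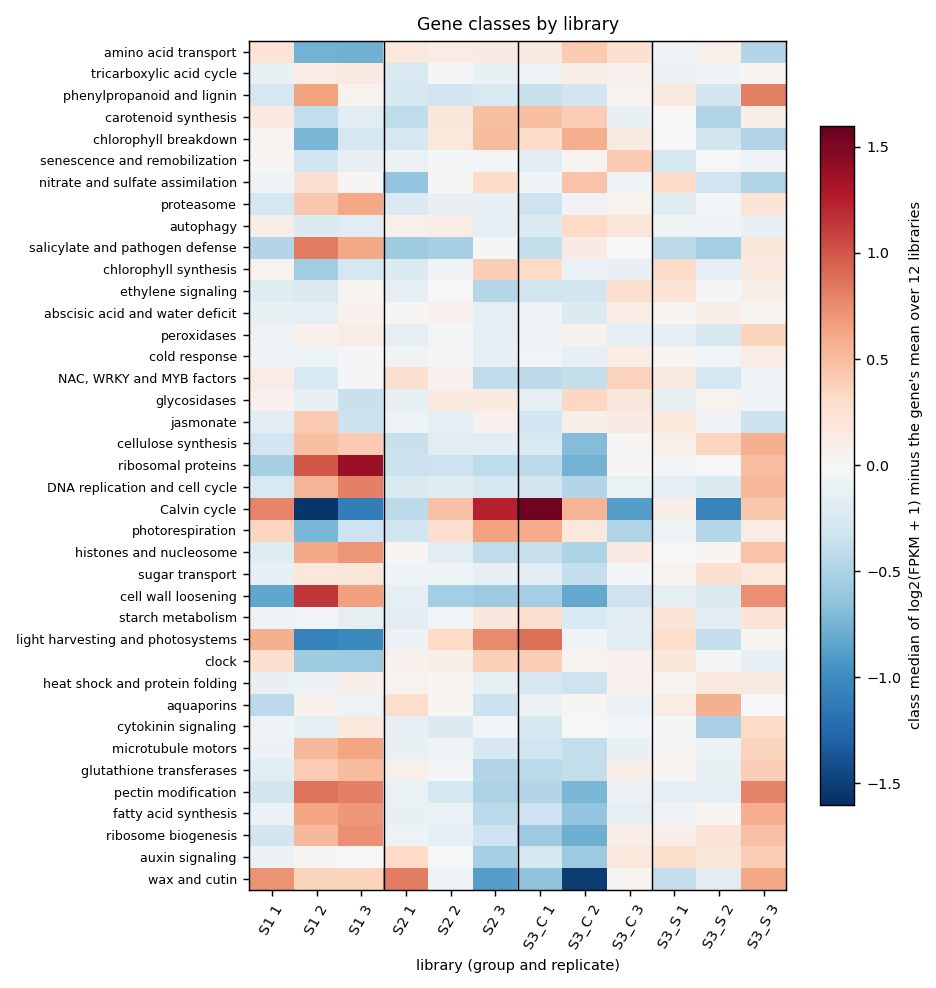
Median level of each of the 39 classes in the 12 libraries, as log2(FPKM + 1) minus the gene's mean over the 12, with classes ordered by their median difference between S3_C and S2. In the Calvin cycle, S2 replicate 3 and S3_C replicate 1 are the darkest red and S3_C replicate 3 is blue; the wax and cutin row runs from red in S2 replicate 1 to blue in S3_C replicate 2.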

How the data were processed

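Leaf poly(A) RNA was read from both ends (Illumina HiSeq), per the labels. Values are FPKM, which the authors calculated for each gene in each library. HISAT2 2.0, StringTie 1.3.0 and Bowtie 0.12.2 appear in the submitters' processing notes, with no role. Genome build, annotation and strand: not given in the sources used here. Counts of reads are not used here, so absolute depth is unknown and no count test was run.

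The test was limma 3.58.1 (R 4.3.3) on log2(FPKM + 1) of the 27272 genes that reached 1 FPKM in 3 or more of the 12 libraries. It used the 6 libraries of S2 and S3_C alone, eBayes with a trend, two-sided p-values, Benjamini-Hochberg adjustment over those genes and calls at an adjusted p under 0.05. Differences on that scale understate those of low genes. The fit was also run on simulated data with noise drawn separately for each gene, as a check of the code. That run says nothing about variation shared across genes in these libraries. Libraries of a group held exactly equal values, shared zeros included, in at most 0.862% of tested genes.

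Classes were matched by Arabidopsis identifier, description or ontology term and read as counts and medians beside those of all genes, with no test of a class. A gene could belong to several classes, so they are not independent of each other. The members and lists were chosen with earlier results of these data known. The text names the called genes, the 10 largest differences in each direction, members of each class by abundance or lowest p, and all tested chlorophyll breakdown, early flavonoid and anthocyanin regulator genes. The largest differences were taken among genes with an informative name, an unadjusted p under 0.05, no overlap and a higher group averaging 5 FPKM or more.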

Additional observations from a re-analysis of the deposited data

How the results depend on the processing

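The count of genes called higher in the center was 1 with a pseudocount of 0.1, a filter on the 6 libraries alone, median-of-ratios scaling, eBayes without a trend and a robust prior. It was 0 with all 12 libraries setting the spread, with the replicate number as a block (replicate block; Bo7g031620 adjusted p = 0.734), with no filter on low values (adjusted p = 0.0793) and, in a filter added after seeing the data, without genes listed at 0 in any of the 6 libraries. Leaving out 1 library gave between 0 and 4 genes, the 4 without S2 replicate 1: Bo7g031620, Bo5g034360, Bo5g050740 and Bo5g050750, whose other 2 S2 libraries lay at 0 or under 0.02 FPKM. The count called lower was 0 in all 15 alternatives. Same-numbered libraries did not deviate together (correlations 0.03, 0.23 and -0.35), so the numbers are not read as pairs. Over 717 recomputed class medians, 88 changed sign, in 35 of 48 lists; over 2196 recomputed differences of the 148 named genes, 71 changed sign, in 40 genes, and the 8 lost calls were all of Bo7g031620. The cause of these changes was not tested. Without depth in reads, no interval for counting error can be given.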

Other observations

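Read against all 9 libraries of the other 3 groups, the red center stood above them in 66 genes (0.242%) and below them in 142 (0.521%). The same counts were 114 and 131 for S1, 32 and 29 for S2 and 235 and 85 for S3_S. The genes named here were chosen after their values were seen, and none passed limma's adjusted test between S3_C and S2. Bo6g064750, annotated as a lysine histidine transporter, a carrier of amino acids, had 1.47, 2.95 and 9.06 FPKM in the center and 0, 0.368 and 0.191 in S2. Bo3g081910, an adenosylhomocysteinase, which clears the by-product of methylation, had 4.93, 5.03 and 4.896 FPKM in the center and 0.409, 1.8997 and 2.25 in S2, and its 3 center libraries were nearly level. Below all others were FTSZ2-1 Bo4g186080, whose protein forms the division ring of chloroplasts, and ARC3, which places it. Both were picked from the 142, and genes of chloroplast division as a set were not tested. FTSZ2-1 Bo4g186080 had 10.3, 6.34 and 11.5 FPKM in the center and 13.5, 12.2 and 13.04 in S2, and ARC3 had 3.15, 3.08 and 3.34 and 4.71, 3.89 and 4.85. REF6, a histone H3 demethylase in Arabidopsis, had 2.86, 2.94 and 0.887 FPKM in the center and 3.46, 3.68 and 3.34 in S2.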
